A study of Caenorhabditis elegans with 6 samples.

Results

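Genes of clathrin-mediated endocytosis and synaptic vesicle recycling were followed in RNA from tagged PVD and OLL neurons of Caenorhabditis elegans and in RNA of the whole animal. The genes, 10 in number, were chosen by name as clathrin, its adaptors, endophilin, synaptojanin and dynamin, and all 10 had a probe set annotated with that gene alone, among 17118 genes on the array. They were read by 24 of the 22548 probe sets tested. The PVD and OLL samples held poly(A) RNA obtained through mRNA tagging: 3X FLAG-tagged PAB-1, a poly(A) binding protein, was made from the ser-2prom3B promoter and pulled down with the mRNA bound to it. PVD is a branched nociceptor beneath the skin, and OLL a mechanosensory cell type in the head. The whole animal samples were total RNA. Both came from L3/L4 larvae grown at 25 °C, were amplified with the same NuGEN kit, and filled 3 arrays per group. The kind of RNA and the tissue changed together, so their effects cannot be told apart. The strain is not given here, nor the age beyond the larval stage, and the whole animal replicates are not stated to be biological, so p-values measure only the spread between these samples, which may be technical.

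When a synaptic vesicle fuses with the cell surface, its membrane and proteins must be taken back. AP-2, an adaptor made of an alpha, a beta, a mu and a sigma subunit, binds cargo and membrane lipid and recruits clathrin, which forms the coat. Further adaptors sort single vesicle proteins into the bud, endophilin bends its neck, dynamin cuts it off, and synaptojanin removes the lipid that holds the coat on. Clathrin, AP-2 and dynamin also serve endocytosis in many other cell types, while AP180, stonin, endophilin and synaptojanin are best known in C. elegans for their roles at synapses.

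AP180 and stonin, adaptors that load vesicle proteins into the coat, and endophilin had the largest differences of these genes, at 2.24, 1.94 and 1.77 on the log2 scale, whereas the clathrin heavy chain and the alpha and sigma subunits of AP-2 were not called. The mu and beta subunits of AP-2, which lie outside the 10 genes, were called higher and are described below. Each gene was represented by its brightest probe set, that with the highest 6-array mean. By this measure 4 of the 10 genes were called higher (unc-11, unc-41, unc-57 and itsn-1) and 0 lower. A call is an adjusted p under 0.05 in limma, adjusted over all 22548 probe sets. Without adjustment, 7 had a p under 0.05, all higher. The share of all genes with an unadjusted p under 0.05 is not given, here or for the lists below. Such unadjusted counts therefore cannot be set against it. Over all genes 8.1% were called higher and 4.66% lower. The median difference was 0.97 for the 10 genes and -0.07 for all genes, as PVD and OLL minus whole animal on the log2 scale that every value here uses. The 8424 genes above the no-target background on all 6 arrays, a level set by control probe sets that have no target in worms, had a median of 0.13, and 11.3% of them were called higher. For the 9 endocytosis genes that met that condition the median was 0.92 and 3 were called. By probe set, 13 of 24 were called higher and 0 lower, against 9.31% and 4.28% of all probe sets. These probe sets are not separate evidence, since 8 of the 13 belong to unc-11. The arrays of the groups did not overlap, with PVD and OLL higher, for 7 of the 10 genes, as for 18.4% of all genes. They did not overlap with PVD and OLL lower for 0 of the 10, against 21.9% of all genes. With arrays left out singly, between 1 and 4 of the 10 genes were called. It was 1 without PVD and OLL replicate 2, and 2 without PVD and OLL replicate 1, PVD and OLL replicate 3 or whole animal replicate 2. Of all probe sets, 2099 were called higher in the main comparison and 577 without PVD and OLL replicate 2. Such calls numbered 902 without PVD and OLL replicate 1, 1942 without PVD and OLL replicate 3 and 1108 without whole animal replicate 2.

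**Figure D1:**
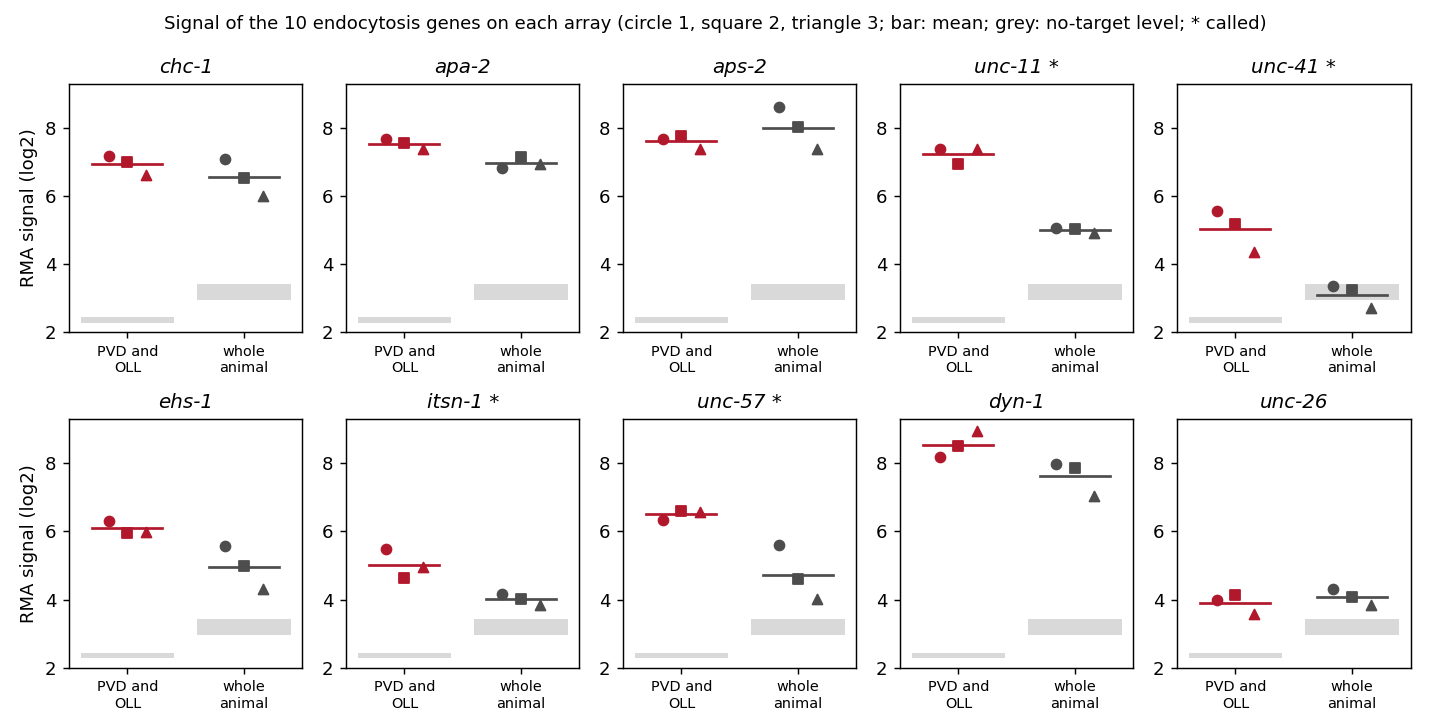
Each panel shows the RMA signal (log2) of the brightest probe set of 1 gene on the 3 PVD and OLL arrays (left) and the 3 whole animal arrays (right), with group means as bars and the range of the no-target level in grey; an asterisk marks an adjusted p under 0.05. The panels of unc-11, unc-41, unc-57 and itsn-1 have no overlap between groups, while those of chc-1, aps-2 and unc-26 overlap.

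The arrays themselves bear on these values. The no-target level lay from 2.28 to 2.44 in PVD and OLL and from 2.95 to 3.43 in the whole animal, so dim signals could exceed it in PVD and OLL alone. All 24 probe sets exceeded it on all PVD and OLL arrays, and 18 did on all whole animal arrays. Relative to the whole animal mean, the median of the 10 genes was 1.03 in PVD and OLL replicate 1, 0.75 in replicate 2 and 0.998 in replicate 3, against 0.30, 0.03 and -0.46 in the whole animal replicates. Whole animal replicate 3 was therefore the lowest array for these genes and whole animal replicate 1 the highest of its group. The same replicate 3 was the highest array for the yolk protein gene vit-2, at 5.61, 5.25 and 4.07 in PVD and OLL, against 7.06, 7.15 and 9.98 in the whole animal, and for the adult collagen gene col-19, at 3.54, 3.24 and 3.63 in PVD and OLL, against 5.94, 5.27 and 7.96 in the whole animal. Without that array, unc-11 differed by 2.20, unc-41 by 1.75 and unc-57 by 1.41, all still called (adjusted p = 0.00852, 0.0284 and 0.0355), while itsn-1 was not (0.93, adjusted p = 0.0752). Of the 11 markers listed for PVD and OLL, with earlier results of these arrays known, 8 were called higher and 0 lower. F49H12.4 and ser-2, whose promoter drove the tag, lay below background on all whole animal arrays and were not called. mec-10, also not called (0.78 ± 0.22, adjusted p = 0.0587), exceeded background on all 6 arrays. Among 8 neuronal markers on none of the endocytosis or release lists described below, 3 were higher and 0 lower. The mean level of the 8 lay from 6.46 to 7.06 in PVD and OLL and from 5.03 to 5.97 in the whole animal. The 3 were ric-19, egl-3 and unc-14. The median difference of the 8 was 1.37, against 0.97 for the 10 endocytosis genes, and 7 of the 8 were positive. unc-33 went the other way without overlap between groups (-0.30 ± 0.18, adjusted p = 0.289). The PVD and OLL arrays were not uniform for these markers. Replicate 3 was far the lowest of them for unc-119, at 7.90, 7.88 and 4.80 (difference 1.38 ± 0.88, adjusted p = 0.309). For rgef-1 it was the highest, at 3.52, 3.61 and 4.06. The part of a general rise of neuronal RNA in the values of the endocytosis genes was not tested. A larger share of neurons among the cells that gave the RNA and more RNA of a gene per neuron cannot be told apart in such samples.

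unc-11 encodes AP180, a clathrin assembly protein that returns the vesicle protein synaptobrevin from the cell surface. Its brightest probe set, 172152_x_at, had values of 7.39, 6.94 and 7.38 in PVD and OLL, against 5.06, 5.03 and 4.91 in the whole animal. The lowest PVD and OLL array stood far above the highest whole animal array. The difference was 2.24 ± 0.21 (log2, SE, n = 3 arrays per group, limma adjusted p = 0.00402), a 4.72-fold rise with a 95% confidence interval of 1.76 to 2.72 on the log2 scale. unc-11 was called in all 6 fits that leave out an array (highest adjusted p = 0.0293) and under all 5 other scalings of the arrays. Among these scalings, centring on proteasome genes adds 0.31 to every difference and centring on the bioB and bioC controls 1.24. Both therefore favour a call higher.

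The array carries 10 probe sets for unc-11, of which 6 end in _x_at and may share targets. Of the 10, 8 were called higher, with differences between 1.73 and 2.24. Across these 8, values lay from 4.99 to 7.39 in PVD and OLL and from 2.71 to 5.06 in the whole animal. Within each of the 8, the groups were at least 0.888 apart on the log2 scale, and 7 of them were called in all 6 of those fits. The exception, 174230_at, was called in 2 of the 6 (adjusted p up to 0.0851). The other pair of probe sets did not pass the test. Probe set 176649_s_at had 5.21, 4.24 and 5.56 in PVD and OLL, against 3.14, 4.47 and 3.33 in the whole animal (difference 1.36 ± 0.45, adjusted p = 0.0848), with PVD and OLL replicate 2 below whole animal replicate 2. The dimmest, 176648_at, had 2.75, 2.29 and 3.16 in PVD and OLL, against 2.76, 2.88 and 2.47 in the whole animal, where all 3 were below background (difference 0.03 ± 0.27, adjusted p = 0.943). Which unc-11 transcripts each probe set reads was not examined.

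unc-41 encodes stonin, an adaptor for the vesicle calcium sensor synaptotagmin. Probe set 193062_s_at had values of 5.57, 5.19 and 4.37 in PVD and OLL, against 3.36, 3.23 and 2.72 in the whole animal, with 1 of the whole animal arrays above background. All PVD and OLL arrays were higher, and replicate 3 was the lowest of each group. The difference was 1.94 ± 0.34 (adjusted p = 0.0133), and no fold is given because the whole animal mean of 3.10 lay near background. It had an adjusted p of 0.0624 once PVD and OLL replicate 2 was left out. Its other probe set, 173890_at, had 4.14, 4.18 and 4.62 in PVD and OLL, against 2.35, 2.26 and 2.35 in the whole animal. The whole animal values all lay below background, so unc-41 was at least 2.23-fold higher by this probe set (adjusted p = 0.00439), and this call was kept in all 6 fits that leave out an array. Both probe sets of unc-41 were called under all 5 other scalings, of which proteasome and control centring raise every difference and so favour a call higher.

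ehs-1 and itsn-1 encode Eps15 and intersectin, scaffold proteins that bind each other and gather adaptors and dynamin at the forming pit. itsn-1 had values of 5.48, 4.63 and 4.97 in PVD and OLL, against 4.17, 4.01 and 3.86 in the whole animal. The groups did not overlap. Its rise of 1.01 ± 0.26 (adjusted p = 0.0411), or 2.01-fold, was near the threshold, and with any single array removed it was no longer called (6 of 6 such fits, adjusted p between 0.0634 and 0.121). Nor was itsn-1 called after repeated quantile normalization (0.67, adjusted p = 0.163), cyclic loess (0.65, adjusted p = 0.164) or centring on array medians (0.81, adjusted p = 0.0748). ehs-1 had 6.31, 5.96 and 5.99 in PVD and OLL, against 5.57, 4.98 and 4.30 in the whole animal. No array of ehs-1 overlapped either, but the whole animal arrays were spread over a wide range (SD 0.64, against 0.19 in PVD and OLL). The difference of 1.14 ± 0.33 did not pass the test (adjusted p = 0.0586). It passed without whole animal replicate 1 (1.45, adjusted p = 0.0358). Although only itsn-1 was called, the intervals of the 2 genes overlap, at 0.41 to 1.61 for itsn-1 and 0.38 to 1.90 for ehs-1, and the difference between them was not tested.

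unc-57 encodes endophilin, which bends the neck of the bud and brings synaptojanin to it. Its values were 6.34, 6.61 and 6.56 in PVD and OLL, against 5.59, 4.59 and 4.02 in the whole animal. The PVD and OLL arrays were close together (SD 0.14) and all higher, while the whole animal arrays varied more (SD 0.80). unc-57 rose by 1.77 ± 0.38 (adjusted p = 0.0244), or 3.41-fold. It missed the threshold in 4 of the 6 fits that leave out an array (adjusted p up to 0.0928), those without any 1 of the PVD and OLL arrays or without whole animal replicate 2. Repeated quantile normalization (1.46, adjusted p = 0.0611) and cyclic loess (1.42, adjusted p = 0.0581) also ended the call of unc-57.

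The probe sets of unc-26, which encodes the lipid phosphatase synaptojanin, gave different answers. By the brightest, 176855_s_at, it had 4.0, 4.13 and 3.58 in PVD and OLL, against 4.31, 4.08 and 3.85 in the whole animal. These groups overlapped, and the difference was -0.18 ± 0.23 (adjusted p = 0.619). By 193738_s_at it had 4.41, 4.41 and 4.64 in PVD and OLL, against 3.13, 2.93 and 3.13 in the whole animal, with 2 of these above background. Here the groups lay well apart, with a rise of 1.42 ± 0.19 (adjusted p = 0.00633). This probe set was called in all 6 fits that leave out an array and under all 5 other scalings. Of the scalings, proteasome and control centring favour a call higher. By 175739_s_at it had 3.40, 3.13 and 3.39 in PVD and OLL, against 3.07, 2.31 and 2.67 in the whole animal, all 3 of them below background (difference 0.62 ± 0.24, adjusted p = 0.127). A further probe set listed under a pair of gene IDs that both carry the name unc-26, and so not counted among the 24, had 4.01, 4.16 and 2.83 in PVD and OLL, against 3.35, 3.10 and 3.83 in the whole animal (difference 0.24 ± 0.38, adjusted p = 0.689). unc-26 was thus called by 1 of its 3 own probe sets, and not by the one that stands for it in the counts. With the probe sets of a gene averaged, its difference was 0.62 ± 0.18 (adjusted p = 0.0614).

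dyn-1 encodes dynamin, the GTPase that cuts the bud from the membrane. Probe set 175673_s_at had 8.20, 8.51 and 8.95 in PVD and OLL, against 7.97, 7.87 and 7.05 in the whole animal. The groups did not overlap, but the difference of 0.92 ± 0.32 did not pass the test (adjusted p = 0.0925). Probe set 188161_s_at had 7.11, 5.82 and 4.69 in PVD and OLL, against 4.43, 4.16 and 5.06 in the whole animal (difference 1.33 ± 0.57, adjusted p = 0.155), and its groups overlapped. In PVD and OLL replicate 3 the 2 probe sets parted: it was the highest of its group by the first and the lowest by the second. With both averaged, dyn-1 was 1.12 ± 0.24 higher (adjusted p = 0.0246).

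**Figure D2:**
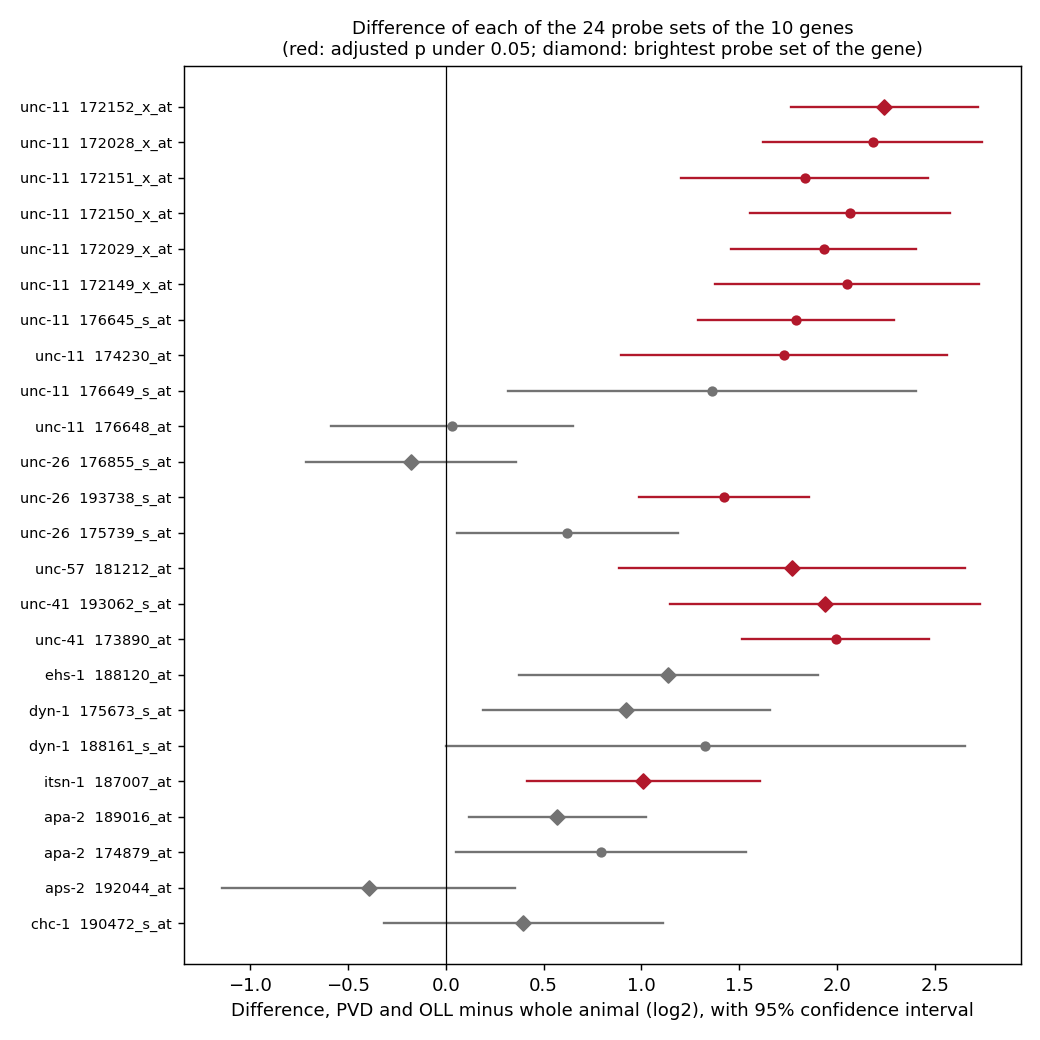
Difference between PVD and OLL and whole animal (log2, x axis) for each of the 24 probe sets, with its 95% confidence interval; red marks an adjusted p under 0.05 and a diamond the brightest probe set of a gene. Of the 10 probe sets of unc-11, 8 are red, between 1.73 and 2.24, while those of unc-26 spread from -0.18 to 1.42 and none of those of dyn-1, apa-2, aps-2 and chc-1 is red.

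Of the 3 genes for the coat itself, 0 were called in either direction by limma, and apa-2 alone had an unadjusted p under 0.05 (0.0202). chc-1, the clathrin heavy chain, had 7.18, 7.01 and 6.63 in PVD and OLL, against 7.08, 6.54 and 6.01 in the whole animal. The groups overlapped, with a difference of 0.40 ± 0.31 (adjusted p = 0.395) and a 95% confidence interval of -0.32 to 1.11. A rise of about 2-fold is thus within what the data allow for chc-1, whereas the 4.72-fold rise of unc-11 is not. apa-2, the alpha subunit of AP-2, had 7.68, 7.56 and 7.37 by probe set 189016_at in PVD and OLL, against 6.82, 7.14 and 6.94 in the whole animal. All PVD and OLL arrays of apa-2 were higher, but by little (difference 0.57 ± 0.20, adjusted p = 0.0928). Its dimmer probe set, 174879_at, overlapped between groups (0.79 ± 0.32, adjusted p = 0.134). aps-2, the sigma subunit, had 7.67, 7.77 and 7.38 in PVD and OLL, against 8.60, 8.04 and 7.37 in the whole animal. Its difference of -0.39 ± 0.32 was negative and not called (adjusted p = 0.420), and the whole animal arrays spanned more than the PVD and OLL arrays did. The 95% confidence interval for aps-2, -1.14 to 0.35, does not reach that of unc-11, unc-41 or unc-57.

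**Figure D3:**
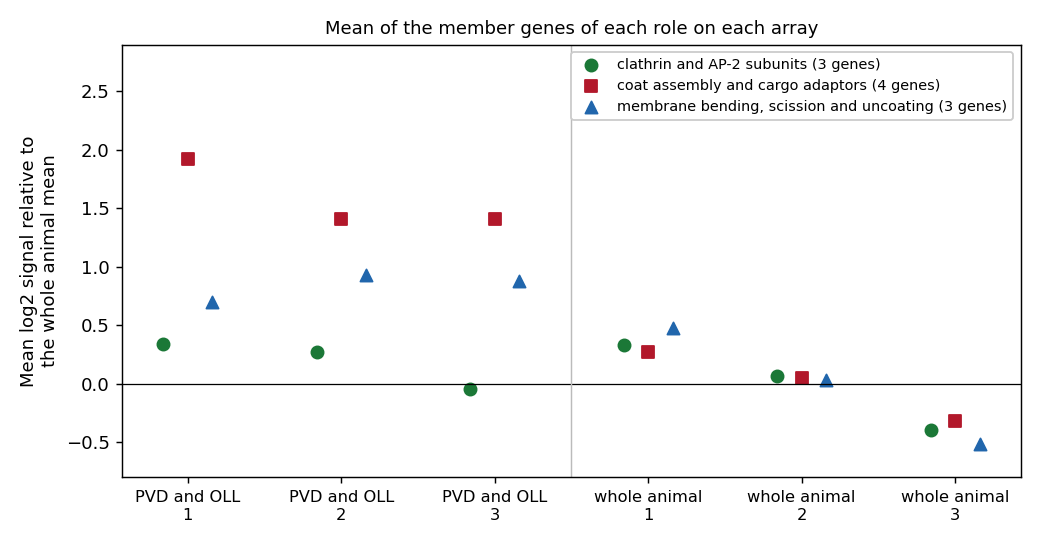
Mean log2 signal of the genes of each role relative to their whole animal mean, on each of the 3 PVD and OLL arrays (left) and 3 whole animal arrays (right). The 4 adaptor and scaffold genes outside AP-2 stand at 1.92, 1.41 and 1.41 in PVD and OLL. chc-1, apa-2 and aps-2 stand at 0.34, 0.28 and -0.04, overlapping the whole animal arrays at 0.33, 0.07 and -0.40. The AP-2 subunits dpy-23 and apb-1, both called higher, are in none of the roles.

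Grouped by role, the 4 adaptor and scaffold genes (unc-11, unc-41, ehs-1, itsn-1) had differences between 1.01 and 2.24, and 3 were called. The 3 genes for membrane bending, scission and uncoating (unc-57, dyn-1, unc-26) lay between -0.18 and 1.77, and 1 was called. The 3 clathrin and AP-2 genes (chc-1, apa-2, aps-2) lay between -0.39 and 0.57. Averaged per array relative to the whole animal mean, the clathrin and AP-2 genes stood at 0.34, 0.28 and -0.04 in PVD and OLL, against 0.33, 0.07 and -0.40 in the whole animal, so that the groups overlapped. The adaptor genes stood at 1.92, 1.41 and 1.41 in PVD and OLL, against 0.27, 0.05 and -0.32 in the whole animal, with no overlap. Differences between roles were not tested. The roles also differ in distance from background, which chc-1, apa-2 and aps-2 exceeded on all 6 arrays and unc-41 on 1 of the 3 whole animal arrays.

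The other AP-2 subunits were called by their brightest probe sets. dpy-23, the mu subunit that recognises cargo, rose by 1.52 ± 0.20 (adjusted p = 0.00646), with 5.76, 5.85 and 5.75 in PVD and OLL, against 3.98, 4.39 and 4.44 in the whole animal. Its second probe set rose by 1.09 ± 0.21 (adjusted p = 0.0176). apb-1, the beta subunit that AP-1 and AP-2 share in worms, rose by 1.43 ± 0.29 (adjusted p = 0.0201), with 6.92, 7.41 and 7.36 in PVD and OLL, against 5.94, 6.19 and 5.27 in the whole animal. It was called in 4 of the 6 fits that leave out an array, and the second probe set of apb-1 differed by only 0.27 ± 0.34 (adjusted p = 0.595). clic-1, the clathrin light chain, had 7.50, 7.43 and 7.12 in PVD and OLL, against 6.41, 7.11 and 5.96 in the whole animal and was not called (0.86 ± 0.31, adjusted p = 0.105). By their brightest probe sets the 4 subunits of AP-2 ranged from -0.39 for aps-2 to 1.52 for dpy-23, and the differences between subunits were not tested.

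Beyond the 10 genes, the list of 15 other genes of the clathrin coat, AP-2 and cargo adaptors had 5 rises and 0 falls, and a median of 0.72. Without adjustment, 8 had a p under 0.05, all higher. Besides dpy-23 and apb-1, fcho-1, an activator of AP-2, rose by 1.32 ± 0.30 (adjusted p = 0.0278), and lst-4, a sorting nexin, by 1.26 ± 0.23 (adjusted p = 0.0141). The remaining gene called was sel-5, a protein kinase (0.86 ± 0.21, adjusted p = 0.0351), which lies outside the rule for named genes. In the 6 fits that leave out an array, fcho-1 was called in 1 and lst-4 in 4, and the other probe sets of both were not called. The number of genes of this list called in such fits was between 1 and 4, and was 1 without PVD and OLL replicate 2. In that fit 577 of all probe sets were called higher, against 2099 in the main comparison. Of 7 measured AP-1 and AP-3 genes, 1 rose and 0 fell, with a median of 0.49. That gene, apd-3, the delta subunit of AP-3, rose by 1.17 ± 0.20 (adjusted p = 0.0116), and missed the threshold once PVD and OLL replicate 2 was left out (adjusted p = 0.0624). Among 15 measured genes of membrane bending, early endosomes and recycling, limma called 0 in either direction. That count was 0 to 2 in the fits that leave out an array, with 2 called higher without PVD and OLL replicate 3 and 1 without whole animal replicate 1. It was 5 with both arrays numbered 3 left out, 5 with the probe sets of a gene averaged, 3 after proteasome centring and 14 after centring on the bioB and bioC controls. Of all 22548 probe sets, 2099 were called higher in the main comparison and 3300 with both arrays numbered 3 left out. After proteasome centring 3997 were, and after control centring 12752. The median of the 15 genes was 0.61, and without adjustment 5 had a p under 0.05, all higher.

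Genes that release the vesicle stood beside those that retrieve it. Of 16 genes of vesicle release and transport, 7 rose and 0 fell, with a median of 0.96. Without adjustment, 11 had a p under 0.05, all higher. ric-4, the SNAP-25 of the fusion complex, rose by 2.27 ± 0.34 (adjusted p = 0.00858), and its other probe set by 2.98 ± 0.20 (adjusted p = 0.00205). rab-3, the vesicle GTPase, rose by 2.12 ± 0.19 (adjusted p = 0.00402), although its other probe set was not called. Complexin, cpx-1, rose by 1.83 ± 0.39 (adjusted p = 0.0245), and synaptotagmin, snt-1, the cargo of stonin, by 1.54 ± 0.33 (adjusted p = 0.0239), although its other probe set was not called (adjusted p = 0.0639). snb-1, the synaptobrevin that AP180 retrieves, differed by 0.12 ± 0.34 by its brightest probe set (adjusted p = 0.830) and rose by 1.04 ± 0.20 by the other (adjusted p = 0.0174). In the 6 fits that leave out an array, cpx-1 was called in 1 and snt-1 in 3, and between 4 and 9 of the 16 genes were called. The lowest count, 4, came without PVD and OLL replicate 1, PVD and OLL replicate 2 or whole animal replicate 2. In those fits 902, 577 and 1108 of all probe sets were called higher, against 2099 in the main comparison. All of these lists were drawn up with earlier results of these arrays known, and no test set one list against another.

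**Figure D4:**
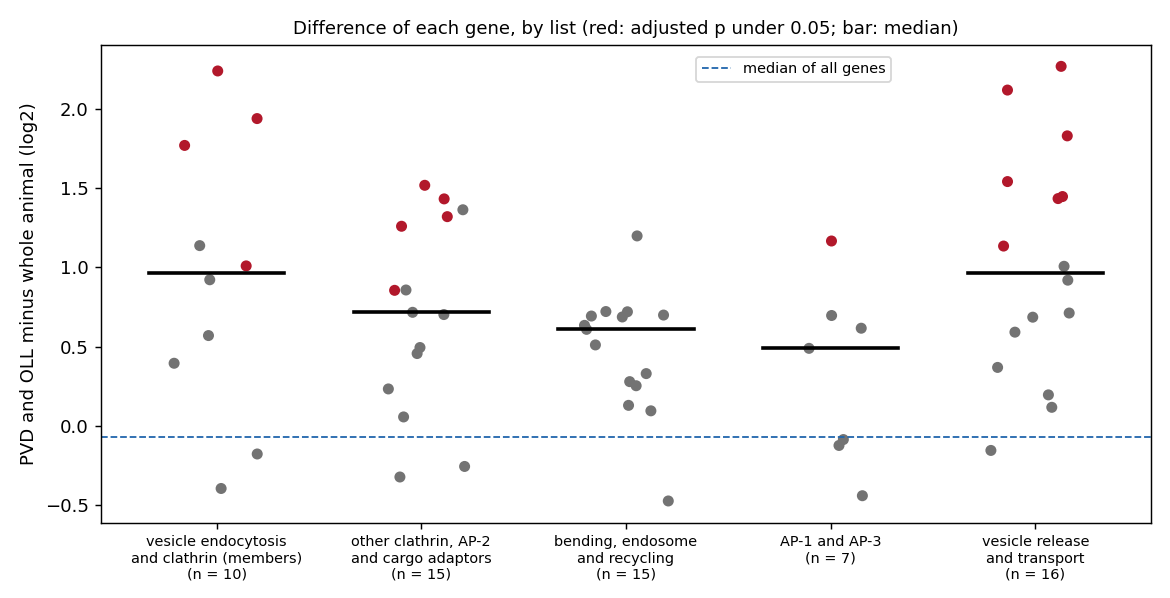
Difference between PVD and OLL and whole animal (log2, y axis) for each gene of 5 lists, with list medians as black bars and genes at an adjusted p under 0.05 in red; the dashed line is the median of all genes, -0.07. The medians run from 0.97 for the 10 endocytosis genes and 0.96 for vesicle release down to 0.49 for AP-1 and AP-3, and every list also holds genes that were not called.

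Endocytosis is heavy in cell types other than neurons, and their markers were read on the same arrays. The 3 markers of coelomocytes, scavenger cells that take up fluid from the body cavity, had a mean level from 2.83 to 3.16 in PVD and OLL and from 3.36 to 4.02 in the whole animal. limma called 0 of the 3 (0 higher and 1 lower by unadjusted p), and 0 had a positive difference. The yolk receptor gene rme-2, a marker of oocytes, fell by 2.24 ± 0.57 (adjusted p = 0.0402), the 1 of 7 germline markers called. Of 7 intestine markers, 0 rose and 2 fell, the yolk protein genes vit-2 and vit-6. The other 5 had positive differences, 2 of them at an unadjusted p under 0.05, and the median of the list was 0.29. Of 7 body wall muscle markers, 1 rose (myo-3, 1.05 ± 0.20, adjusted p = 0.0188) and 1 fell (unc-27). The muscle list had a mean level from 10.18 to 10.46 in PVD and OLL and from 9.92 to 10.41 in the whole animal, so muscle transcripts were abundant in both kinds of RNA. Of 6 hypodermis markers, rol-6 and lin-26 rose and col-19 and col-12 fell, and of 4 pharynx markers 0 were called, nor did any have an unadjusted p under 0.05. All these counts are by brightest probe sets. By other probe sets, myo-1 of the pharynx (2.16 ± 0.44, adjusted p = 0.0205) was called higher, as was elt-2 of the intestine (0.72 ± 0.19, adjusted p = 0.0459, whole animal arrays below background). Those of elt-3 (1.46 ± 0.28, adjusted p = 0.0177) and lin-26 (1.52 ± 0.30, adjusted p = 0.0192) were also called higher. Another probe set of germline cbd-1 was called lower (-1.04 ± 0.22, adjusted p = 0.0246). These markers are named after their values were seen. The part of RNA from such cells in the values of the endocytosis genes was not tested.

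The genes whose profile over the 6 arrays lay closest to the mean profile of the 10 endocytosis genes were swan-2, haf-9, cic-1, xbp-1 and ncl-1. They were sought by Euclidean distance among 10048 genes with group means above background, and their distances ran from 0.131 to 0.247. Among the 10 themselves, ehs-1 was closest to that mean profile, at 0.464, and unc-11 and aps-2 were farthest, at 1.69 and 1.68.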

How the data were processed

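Poly(A) RNA from tagged PVD and OLL neurons and total RNA of whole larvae were hybridised to 1-colour Affymetrix C. elegans arrays, 3 per group. The deposited log2 values, 1 per probe set and array, had been summarised by the authors with RMA, per the submitters' processing notes; the software version is not given here. RMA includes quantile normalization of probe signals. The medians of the deposited arrays still lay from 3.72 to 3.89 in PVD and OLL and from 3.59 to 3.67 in the whole animal. The base of the logarithm was read from the range of the values. Of 22625 probe sets, 77 controls were left out. Names came from the array annotation, updated through a RefSeq table (WBcel235) by gene ID for 20701 of the 20766 probe sets with 1 gene; 887 had several and 895 none listed.

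Groups were compared with limma 3.58.1 (lmFit, eBayes) in R 4.3.3 without covariates, two-sided, with Benjamini-Hochberg adjustment over all 22548 tested probe sets. Errors are moderated standard errors. The no-target level of an array is the 95th percentile of 32 bacterial and yeast control probe sets. Where all 3 whole animal arrays lay below it, a fold is given as a lower bound against that level. The number of arrays limits the precision. The code was tested on simulated data.

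The members and lists were chosen with earlier results of these data known. Named genes are the 10 members, dpy-23, apb-1, clic-1, and up to 4 called genes per list by size. Of the listed genes, erp-1 and aps-3 had no probe set of their own here. Probe sets ending in _s_at or _x_at, 15 of the 24, can match several transcripts. No sample column was left unused. Sequences and scanner files were not used here.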

Additional observations from a re-analysis of the deposited data

How the results depend on the processing

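Of the 10 genes, unc-11 and unc-41 kept their direction and their call under all 5 other scalings. Over these, with the extremes set by cyclic loess and by centring on the bioB and bioC controls, unc-11 differed by 1.93 to 3.48 and unc-41 by 1.63 to 3.18. Median centring moved the median of all probe sets by -0.20, proteasome centring by 0.31 and control centring by 1.24. Of all called probe sets, 68.5% were higher on the deposited scale, against 54.2% when quantile normalization was repeated, 52.6% with cyclic loess, 43.1% after median centring, 89.9% after proteasome centring and 99.5% after control centring. The last called 12818 probe sets, against 3063. The genes called higher among the 10, 4 in the main comparison, numbered 2 after repeated quantile normalization, 2 after cyclic loess and 3 after median centring. They numbered 7 after proteasome centring and 8 after control centring, which also called 22 of the 24 probe sets. With a variance trend and robust fit in limma they numbered 3, and without the dimmest 25% of probe sets 5. The count also depends on the choice of the brightest probe set, and was 5 with the probe sets of a gene averaged. The sign of unc-26 turned to 0.13 with proteasome centring, 1.06 with control centring and 0.62 with its probe sets averaged, and that of aps-2 to 0.85 with control centring. With the _s_at and _x_at probe sets left out, 1786 probe sets were called in all and 4 of the 9 left for these genes. Leaving out single arrays gave 785 to 3239 called probe sets and 1 to 4 called genes among the 10. Both lowest counts came without PVD and OLL replicate 2. Leaving out the arrays numbered 3 in both groups gave 5142 called probe sets and 3 called genes among the 10.

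Same-numbered arrays did not deviate together (correlations of -0.05, -0.07 and -0.10). Those between differently numbered arrays ran from -0.06 to 0.08. Samples collected or processed together need not deviate alike, so these correlations cannot show whether the numbers pair the samples. With replicate number as a block, 1629 probe sets and 2 of the 10 genes were called, the calls of unc-57 (adjusted p = 0.0545) and itsn-1 (0.0649) being lost. The cause of these changes was not tested. The dim signals of unc-41 and of the lesser probe sets of unc-26 are limited by the background of the whole animal arrays.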

Other observations

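In the list of early endosome and recycling genes, no gene was called by its brightest probe set, but 5 of the 12 other probe sets of these genes were called higher and 0 lower, against 9.31% and 4.28% of all probe sets. They were singled out after their values were seen. tbc-2, a GTPase-activating protein of endosomes, was at least 2.93-fold higher by probe set 186767_s_at (adjusted p = 0.0105), with all whole animal arrays below background. rab-7, the GTPase of late endosomes, rose by 1.32 ± 0.23 (adjusted p = 0.0129) by its dimmer probe set. By theirs, alx-1, an endosomal sorting protein, rose by 1.19 ± 0.28 (adjusted p = 0.0313), vps-35, a retromer subunit, by 1.08 ± 0.21 (adjusted p = 0.0173) and rab-5, the GTPase of early endosomes, by 0.94 ± 0.23 (adjusted p = 0.0385).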
